A study of Mus musculus with 63 samples.

Results

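The 10 genes described here mark the macrophages of the brain's borders and the monocytes that can replenish them, and they were followed in 4 cell populations sorted from mouse cortex after a burn of the skin or a sham procedure. The genes were Mrc1, Cd163, Lyve1, F13a1, Pf4, Ms4a7, Cbr2 and Stab1, taken as macrophage genes, and Ccr2 and Ly6c2, taken as monocyte genes. They were chosen by name, and all 10 were found among the 56980 genes of each count table. The mice were female C57BL/6J animals, 12 weeks old at the start. Both groups were first given the same mixture of viruses in the motor cortex on both sides, one virus carrying eGFP under a CaMKII promoter and the other carrying mRuby2 under the mDlx enhancer. Burned mice then received a contact burn of the right flank under anaesthesia, sham mice were only shaved, and brains were taken 5 weeks later. The cells called CaMKII (eGFP only, labelled excitatory neurons) and double-positive (eGFP and mRuby2, labelled inhibitory neurons) were sorted from the motor cortex. The ACSA2 cells (labelled astrocytes) and CD11b cells (labelled microglia) were sorted by surface antibody from the cortex behind it. RNA-seq libraries of 17 mice were compared, 4 burn and 6 sham for CaMKII, 9 and 7 for double-positive, 9 and 8 for ACSA2 and 8 and 7 for CD11b. All libraries of mouse 3 and the double-positive library of mouse 8 were left out.

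Border macrophages live in the meninges, around vessels and in the choroid plexus, outside the brain tissue that microglia fill. Mrc1 encodes the mannose receptor, Cd163 the receptor that takes up haemoglobin bound to haptoglobin, Lyve1 a hyaluronan receptor and Stab1 a scavenger receptor. F13a1 encodes the A subunit of coagulation factor XIII, Pf4 the chemokine CXCL4, Ms4a7 a membrane protein with 4 transmembrane spans and Cbr2 a carbonyl reductase. Ccr2 is the receptor by which classical monocytes answer CCL2, and Ly6c2 is one of the genes behind the Ly6C antigen that marks them. Lyve1 and Stab1 are also used by some endothelial cells, Pf4 by platelets and the Ly6C genes by endothelial cells.

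Marker levels went with the names of the ACSA2 cells, where 5 astrocyte markers summed to 32778 to 46949 CPM (a gene's counts scaled to a common library total), and of the CD11b cells, but against the labels of the virus-marked cells. The summed level of 10 microglia markers was 15132 to 28558 CPM in the double-positive libraries and 18299 to 27570 CPM in the CD11b libraries, while 5 neuron markers summed to 5.77 to 28.9 CPM in the double-positive libraries. The CaMKII libraries held 12114 to 23152 CPM of the astrocyte markers and 12.2 to 128 CPM of the neuron markers. The populations are therefore called by their gates. Library totals ran from 13346143 to 134703744 counts. The left-out double-positive library of mouse 8 held 331215. Libraries were made in 3 sequencing batches. In batch 3 each arm of the CD11b, double-positive and ACSA2 cells held 5 mice, whereas batch 1 held 3 burn and 1 sham CD11b libraries and batch 2 held a single CD11b library, of sham mouse 13. Region, virus and gate cannot be told apart between the populations taken from the motor cortex and those taken behind it.

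The stretches before the starts of Mrc1, Cd163, F13a1, Cbr2 and Stab1 are printed as examples. The levels of Mrc1, Cd163, F13a1 and Cbr2 were correlated over mice, and Stab1 followed them less over all 15 CD11b libraries. Pf4 and Ms4a7 were correlated with them too and are not printed. Whether promoter sequence has a part in the correlations was not tested. RefSeq promoters of build GRCm38.p6 were found for 9 of the 10 genes. Each run is the 250 bases before the start, read 5′ to 3′ on the gene's strand, and capitals mark GAGGAAG, a core of sites for the myeloid factor PU.1, on either strand.
Mrc1 (chr2:14229164-14229413, plus strand): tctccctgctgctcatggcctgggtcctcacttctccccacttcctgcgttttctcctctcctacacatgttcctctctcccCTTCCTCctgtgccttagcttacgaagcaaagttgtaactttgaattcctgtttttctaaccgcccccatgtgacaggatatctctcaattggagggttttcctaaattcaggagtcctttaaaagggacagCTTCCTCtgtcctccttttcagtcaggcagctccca
Cd163 (chr6:124304401-124304650, plus strand): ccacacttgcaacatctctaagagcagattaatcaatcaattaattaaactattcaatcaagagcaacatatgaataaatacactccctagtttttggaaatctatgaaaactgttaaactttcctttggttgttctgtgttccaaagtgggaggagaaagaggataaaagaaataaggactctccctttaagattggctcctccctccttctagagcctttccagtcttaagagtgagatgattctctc
F13a1 (chr13:37050245-37050494, minus strand): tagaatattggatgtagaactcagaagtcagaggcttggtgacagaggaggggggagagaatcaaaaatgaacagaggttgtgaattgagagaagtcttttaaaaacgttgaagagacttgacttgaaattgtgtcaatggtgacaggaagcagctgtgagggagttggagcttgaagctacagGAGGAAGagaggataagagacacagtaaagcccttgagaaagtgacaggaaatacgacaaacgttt
Cbr2 (chr11:120732022-120732271, minus strand): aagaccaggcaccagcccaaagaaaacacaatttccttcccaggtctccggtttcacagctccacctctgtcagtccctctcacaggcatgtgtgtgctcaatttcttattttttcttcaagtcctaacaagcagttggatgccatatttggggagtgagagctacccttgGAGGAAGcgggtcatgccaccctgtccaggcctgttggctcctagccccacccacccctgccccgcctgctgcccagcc
Stab1 (chr14:31168642-31168891, minus strand): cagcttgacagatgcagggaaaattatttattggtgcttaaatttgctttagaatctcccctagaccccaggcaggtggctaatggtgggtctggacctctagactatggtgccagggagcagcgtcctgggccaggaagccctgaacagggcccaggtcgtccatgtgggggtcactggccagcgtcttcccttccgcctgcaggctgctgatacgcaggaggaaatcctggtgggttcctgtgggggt
The table lists a second promoter for F13a1, Ms4a7 and Ly6c2. GAGGAAG was found in at least 1 listed promoter of 5 of the 9 genes (Mrc1, F13a1, Pf4, Cbr2 and Ly6c2), but not in the second promoter of F13a1. By promoter, 10.6% of all 32851 in the table held it, a share that is not counted per gene. In Mrc1 it stood at 2 places, starting 168 and 36 bases before the start. A MAF half-site, TGCTGAC, was found before none of the 9 and before 3.81% of all promoters, and the C/EBP letters TTGCNNAA were found only before Pf4, against 9.56% of all promoters. No GAGGAAG was found before Cd163, Stab1 or Ccr2, or in either listed promoter of Ms4a7. These matches are letters in a window and were not tested as sites.

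Among the scavenger receptors, Mrc1 stood highest in the CD11b libraries, from 52.1 through a median of 170 to 282 CPM, with double-positive libraries at 47.0, 72.7 and 186 CPM. CaMKII libraries held 0.719, 14.8 and 28.3 CPM of Mrc1 and ACSA2 libraries 0, 0.625 and 1.95 CPM. Every CD11b library thus lay above every CaMKII library, and the CD11b and double-positive ranges overlapped. Cd163 was at 6.59, 29.4 and 58.9 CPM in CD11b libraries and at 4.76, 7.72 and 26.2 CPM in double-positive libraries. In CaMKII libraries Cd163 reached at most 4.33 CPM, and 14 of 17 ACSA2 libraries had no count of it. Lyve1 had the same order, with means of 13.3 ± 6.38 CPM in CD11b (SD, n = 15), 4.06 ± 2.34 CPM in double-positive (n = 16), 1.11 ± 1.25 CPM in CaMKII (n = 10) and 0.0433 ± 0.168 CPM in ACSA2 cells (n = 17). Lymphatic vessels, which also carry Lyve1, were probed by 4 marker genes, which summed to 31.0 to 67.2 CPM in CD11b and 127 to 227 CPM in CaMKII libraries. In CD11b cells only 1 of the 4 had a median above 1 CPM, and their part in the Lyve1 level was not tested.

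Stab1 was far more abundant than the other members and was spread more evenly over the myeloid populations. It stood at 1047, 1399 and 1751 CPM (lowest, median and highest) in CD11b libraries and at 831, 1028 and 1450 CPM in double-positive libraries. CaMKII libraries held 81.4 to 162 CPM and ACSA2 libraries 1.11 to 25.0 CPM of Stab1, so neither overlapped the other populations. Scaled by exon length, Stab1 averaged 134 CPM per kilobase in CD11b cells, Mrc1 27.8, Pf4 13.0, F13a1 12.4, Cbr2 10.8, Cd163 5.91, Lyve1 4.56, Ccr2 4.46, Ms4a7 2.65 and Ly6c2 2.41. The receptor Csf1r, on which macrophages and microglia depend, averaged 1301 CPM per kilobase there.

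F13a1, the clotting factor subunit, stood at 12.9, 86.8 and 131 CPM in CD11b libraries and at 15.0, 24.0 and 82.0 CPM in double-positive libraries. It fell to 3.89 ± 2.98 CPM (SD, n = 10) in CaMKII libraries, and 12 of 17 ACSA2 libraries had no count. Pf4 stood at 3.27, 9.63 and 17.8 CPM in CD11b and 1.54, 3.05 and 7.34 CPM in double-positive libraries. None of the 17 ACSA2 libraries had a Pf4 count, where 3 counts would be 0.0628 to 0.164 CPM, so CD11b cells held at least 85.6-fold more by this floor per library. The 5 platelet markers summed to 11.7 to 24.2 CPM in CD11b and 7.13 to 19.9 CPM in double-positive libraries, and their part in the Pf4 level was not tested. Cbr2 averaged 14.3 ± 6.66 CPM in CD11b, 6.68 ± 3.00 CPM in double-positive, 0.366 ± 0.374 CPM in CaMKII and 0.123 ± 0.271 CPM in ACSA2 cells. A share of 5.37% of its 100-base windows occurs also in the gene Gm11771, so its level is uncertain where reads could be split. On the opposite strand, exons of other genes cover 1.1% of F13a1 (Gm30489) and 1.09% of Stab1 (Nt5dc2), and whether the counting used strand is not given in the sources used here.

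Ms4a7 and the monocyte genes did not keep this order. Ms4a7 ranged from 0 through 3.22 to 50.7 CPM in CaMKII libraries, the top one being burn mouse 20, against 5.18 to 22.1 CPM in CD11b and 2.58 to 15.9 CPM in double-positive libraries. Ccr2 stood at 13.4, 25.4 and 53.5 CPM in CD11b, at 0, 14.03 and 53.2 CPM in CaMKII and at 3.24, 9.39 and 25.9 CPM in double-positive libraries. For these 2 genes the ranges of all 3 populations overlapped. Ly6c2 was highest in CaMKII libraries, at 6.80, 22.3 and 62.7 CPM, against 1.24, 4.96 and 21.2 CPM in CD11b, 0, 0.170 and 5.73 CPM in double-positive and 0, 1.68 and 4.06 CPM in ACSA2 libraries. Its neighbour Ly6c1, which shares 5.81% of the 100-base windows of Ly6c2 and is a gene of brain endothelium, averaged 402 ± 190 CPM in CaMKII and 2.90 ± 2.72 CPM in CD11b libraries. Endothelial markers moved with it, 5 of them summing to 3382 to 9488 CPM in CaMKII and 50.2 to 153 CPM in CD11b libraries. The part of these cells and of shared reads in the Ly6c2 level was not tested.

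**Figure D1:**
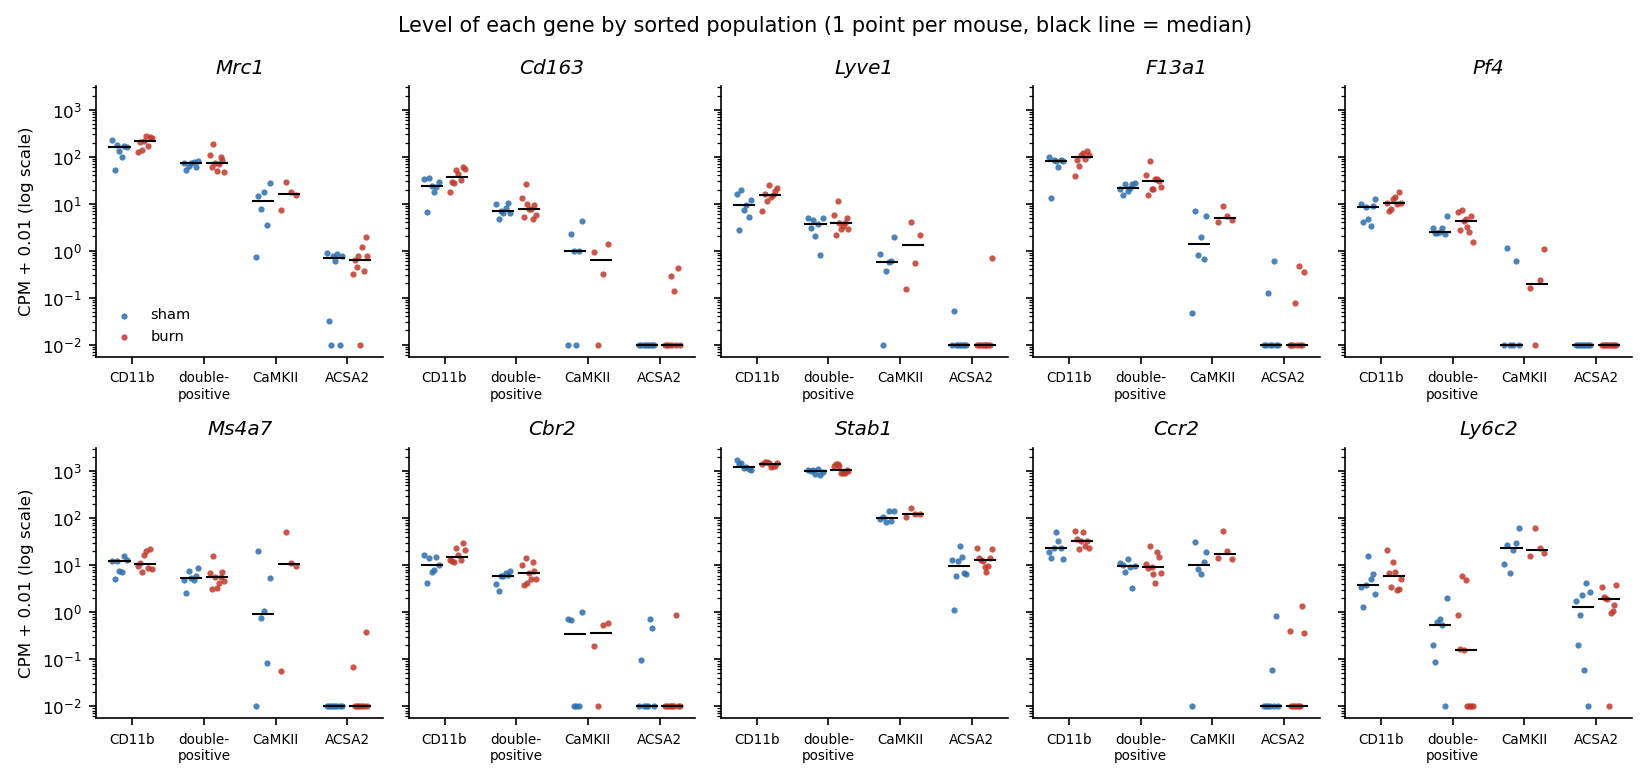
Level of each of the 10 genes (CPM plus 0.01, log axis) in the 4 sorted populations, with 1 point per library, sham in blue and burn in red, and the median as a black line. CD11b and double-positive libraries lie above the others for Stab1 and most macrophage genes, whereas Ly6c2 is highest in the CaMKII libraries.

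The next comparison asked in which sorted population each gene was enriched. One edgeR quasi-likelihood fit of the 58 libraries was used, with batch as a term, and a gene was called at an adjusted p of at most 0.05 over all 33150 genes and a log2 fold change of at least 1 in size. CD11b cells were higher than ACSA2 cells for 10 of 10 genes, where 51.2% of all genes were called and 20.8% were higher. The log2 fold change was smallest for Ly6c2, at 1.65 ± 0.58 (SE, edgeR adjusted p = 0.0104), and it was 8.10 ± 0.40 for Mrc1 and 9.55 ± 0.49 for F13a1. Also called higher in CD11b cells were 10 of 10 microglia, 16 of 18 other border macrophage (1 lower), 7 of 9 monocyte (2 lower) and 6 of 6 neutrophil markers. So were 6 of 8 lymphocyte and 4 of 5 dendritic cell markers (1 lower). Called lower were 5 of 5 astrocyte, 5 of 5 neuron, 7 of 8 mural and fibroblast, 4 of 5 endothelial and 3 of 4 lymphatic markers (1 higher). CaMKII cells were higher than ACSA2 cells for 9 genes, the exception being Cbr2 at 1.31 ± 0.65 (edgeR adjusted p = 0.13), where 16.2% of all genes were called and 12.4% were higher. Cbr2 was called without mouse 17 (1.89, edgeR adjusted p = 0.0272) and without mouse 22 (3.29, edgeR adjusted p = 0.00108). With all deposited libraries it was called as well (1.61, edgeR adjusted p = 0.0438). Ms4a7 was at 8.91 ± 0.87 and Ccr2 at 6.60 ± 0.61. The ACSA2 means of Ms4a7 (0.0248 CPM), Lyve1 (0.0433 CPM), Cd163 (0.0479 CPM) and F13a1 (0.0928 CPM) lay below the 0.11 CPM that 3 counts per library average there. Pf4 had no count in ACSA2 cells. The fitted differences of these genes from ACSA2 cells thus rest on a level near 0 and are not ranked. CaMKII cells also carried 398 to 1521 CPM of the microglia markers against 154 to 272 CPM in ACSA2 cells, and 8 of the 9 monocyte markers were called higher there. Also called higher were 13 of 18 other border macrophage markers (1 lower), 9 of 10 microglia, 8 of 8 lymphocyte, 5 of 5 dendritic cell, 5 of 5 endothelial, 4 of 4 oligodendrocyte, 4 of 6 neutrophil, 2 of 8 mural and fibroblast, 1 of 4 lymphatic (1 lower), 1 of 5 platelet, 1 of 3 red blood cell and 0 of 5 neuron markers, while 5 of 5 astrocyte markers were called lower. The part of these cells was not tested.

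Double-positive cells were lower than CD11b cells for 6 of the 10 genes, although both populations carried microglia genes at close levels. In this contrast 6.82% of all genes were called and 1.25% were lower. The log2 fold changes of the called genes were -2.78 ± 0.61 for Ly6c2, -1.84 ± 0.43 for Cd163, -1.64 ± 0.49 for Lyve1, -1.44 ± 0.34 for F13a1, -1.38 ± 0.47 for Ccr2 and -1.04 ± 0.31 for Mrc1. Cd163, Lyve1, F13a1 and Ly6c2 were called under every alternative that was run, whereas Ccr2 (edgeR adjusted p = 0.0477) was called under 13 of the 26 alternatives. It was not called with the mouse as a replicate block (adjusted p = 0.0671), by DESeq2 (adjusted p = 0.129) or without any 1 of 11 mice. Mrc1 was called under 20 of 26, falling below the fold limit without any 1 of 6 mice, and without mouse 24 its edgeR adjusted p was 0.0512 as well. Pf4 (-1.30 ± 0.46, edgeR adjusted p = 0.0657) was called by DESeq2 alone (adjusted p = 0.0115). Cbr2 (-0.91 ± 0.49), Ms4a7 (-0.86 ± 0.53) and Stab1 (-0.32 ± 0.19) were not called. The 10 genes had a median of -1.34, all genes tested a median of 0.15 and the 10 microglia markers a median of -0.24 with none of them called.

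Other genes of border macrophages showed the same side. Of 18 such markers, 6 were called lower in double-positive than in CD11b cells and none higher, with a median of -0.93. The lectin genes Cd209g (-2.33 ± 0.38) and Mgl2 (-2.03 ± 0.48) and the receptor gene Clec12a (-1.91 ± 0.42) had the largest falls. Of other cell types, 4 of 5 astrocyte markers, 5 of 8 mural and fibroblast markers, 1 of 5 endothelial, 1 of 4 lymphatic, 1 of 4 oligodendrocyte and 0 of 5 neuron markers were called higher in double-positive cells. No platelet or red blood cell marker was called. All 6 neutrophil markers, 6 of 9 monocyte markers, 4 of 8 lymphocyte markers and 2 of 5 dendritic cell markers were called lower in double-positive cells, and the neutrophil sum was 17.0 to 388 CPM in CD11b libraries, against a median of 0 and a highest value of 42.2 CPM in double-positive libraries. In bulk samples fewer cells of a type and less RNA per cell cannot be told apart, and the part of these other cells in the differences was not tested.

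To set the share of microglia aside, each gene's counts were divided by the summed counts of the microglia markers of the same library, and the 2 populations of the same mouse were compared in 14 mice. The test was two-sided and exact, over all sign flips of the within-mouse differences, and 10 genes were tested. Mrc1 was at a median of 3.69 per 1000 microglia-marker counts in double-positive and 8.47 in CD11b libraries, and Cd163 at 0.426 and 1.21. For Cd163 the log2 ratio of double-positive to CD11b averaged -1.60 ± 1.01 (SD, n = 14) and was below 0 in 12 of 14 mice (exact permutation p = 0.000488). For Pf4 it averaged -1.08 ± 0.77 and was below 0 in 13 of 14 mice (exact permutation p = 0.000244, the smallest possible being 0.000122). For Mrc1 it averaged -0.85 ± 0.88 and was below 0 in 11 of 14 mice (exact permutation p = 0.00464). In all, 9 of the 10 genes had an unadjusted exact p of at most 0.05, and Stab1, at -0.11 ± 0.25, did not (exact permutation p = 0.121). Without mouse 19 Stab1 was at -0.16 and had such a p. For Ly6c2, 5 of the 14 double-positive libraries had no count, so their ratios of -7.85 to -6.65 depend on the pseudocount, and the other 9 mice averaged -2.48 ± 2.26, with 7 below 0 (exact permutation p = 0.0234). In the 10 mice of batch 3, Mrc1, Cd163, Lyve1, F13a1 and Pf4 were lower in the double-positive library of 10 of 10 mice (exact permutation p = 0.00195, the smallest possible with 10 mice). In the 4 mice of batches 1 and 2, mice 2, 10 and 13 had a higher ratio in double-positive cells for Mrc1, Lyve1 and F13a1, and mice 10 and 13 for Cd163. The difference of this log2 ratio between batch 3 and batches 1 and 2 was tested for the 10 genes after the data were seen, by a two-sided exact permutation over mice. It was -1.31 for F13a1 (exact permutation p = 0.03), -1.29 for Cd163 (exact permutation p = 0.04), -1.27 for Lyve1 (exact permutation p = 0.0659) and -0.88 for Mrc1 (exact permutation p = 0.0959). All 10 estimates were below 0, 2 had an unadjusted p of at most 0.05, and 0 kept it after adjustment over the 10 tests. Per library total in place of the microglia markers, 4 had such a p (F13a1, Cd163, Lyve1 and Pf4) and 0 kept it. Without mouse 2, 10 or 13 there were 0 genes with such a p, and without mouse 7 or 19 there were 5. Without mouse 7, Mrc1 (-1.48), Lyve1 (-2.12) and Pf4 (-1.14) were among those that kept it after adjustment over the 10 tests. With the left-out libraries put back, only Ly6c2 kept an unadjusted p of at most 0.05 for the ratio itself. The double-positive library of mouse 8 then enters with no Mrc1 or Cd163 count and 1 Csf1r count.

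**Figure D2:**
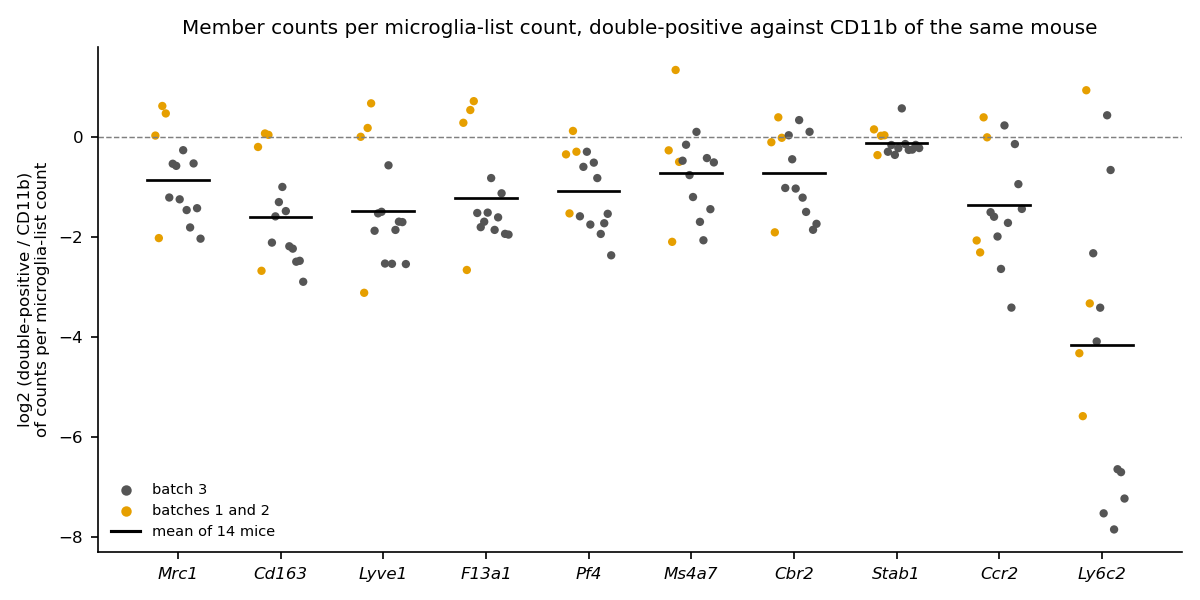
Log2 ratio of double-positive to CD11b cells of the same mouse, for each gene's counts per microglia-marker count, with grey points for the 10 mice of batch 3, orange points for the 4 mice of batches 1 and 2 and a black line at the mean of 14 mice. Stab1 sits near 0 with a narrow spread, at -0.11 ± 0.25, and Ly6c2 lies lowest, at -4.16 ± 2.95, where 5 mice with no double-positive count of it are set by the pseudocount.

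Between CaMKII and double-positive cells, both from the motor cortex, 8 of the 10 genes were called, where 42.5% of all genes were, 17.2% being lower and 25.3% higher. Of these, 7 were lower in CaMKII cells, from -4.57 ± 0.72 for Cbr2 to -2.01 ± 0.58 for Lyve1, and Ly6c2 was higher by 4.85 ± 0.70. Ccr2 (0.49 ± 0.54) and Ms4a7 (0.22 ± 0.65) were not called, and the sign of Ms4a7 turned with the mouse as a replicate block (-0.27) and when mouse 15 (-0.51) or mouse 20 (-0.63) was left out. All 10 microglia markers were lower in CaMKII cells, with a median of -4.82. Per microglia-marker count, a comparison added after the data were seen, Ccr2 was 39.1-fold and Mrc1 3.75-fold higher in CaMKII than in double-positive cells of the same mouse, in 9 of 9 mice each (exact permutation p = 0.00391, the smallest possible). Of the 10 genes tested, 6 had an unadjusted exact p of at most 0.05, all of them higher in CaMKII cells (Mrc1, F13a1, Ms4a7, Stab1, Ccr2 and Ly6c2). Lyve1 (3.73-fold, exact permutation p = 0.0664), Cd163 (1.37-fold, exact permutation p = 0.641), Pf4 (0.832-fold, exact permutation p = 0.801) and Cbr2 (0.403-fold, exact permutation p = 0.109) did not. CaMKII libraries had no Pf4 count in mice 16, 17, 19 and 20 and no Cbr2 count in mice 16, 17, 18 and 20. Cd163 had none in mice 17 and 20 and Lyve1 none in mouse 15. Double-positive libraries had no Ly6c2 count in mice 18, 22 and 24. The ratios of these mice depend on the pseudocount. Leaving out 1 mouse gave 5 to 7 genes with an unadjusted p of at most 0.05. Ms4a7 was not among them without mouse 15, 17, 19, 20, 22 or 24. In the same contrast 3 of 18 other border macrophage markers were called higher and 7 lower in CaMKII cells. Called higher there were 5 of 5 endothelial markers, 5 of 5 astrocyte, 4 of 4 oligodendrocyte, 7 of 8 mural and fibroblast, 4 of 5 neuron, 4 of 5 dendritic cell, 5 of 8 lymphocyte (1 lower), 3 of 4 lymphatic (1 lower), 3 of 6 neutrophil, 1 of 5 platelet (1 lower) and 1 of 3 red blood cell markers. So were 6 of 9 monocyte markers, and the monocyte sum was 1009 to 3091 CPM there and 7.35 to 411 CPM in double-positive libraries. The same sum was 29.0 to 217 CPM in CD11b and 106 to 417 CPM in ACSA2 libraries. The part of these cells in the members' differences was not tested.

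The design asked whether the burn left a trace in these genes 5 weeks later. In CD11b cells Mrc1 was at 124, 211 and 282 CPM (lowest, median and highest) in 8 burn libraries and at 52.1, 160 and 230 CPM in 7 sham libraries. Cd163 was at 17.6, 37.0 and 58.9 CPM in burn and at 6.59, 23.8 and 35.3 CPM in sham libraries. Cbr2 was at 11.9, 14.7 and 29.9 CPM in burn and at 4.07, 9.90 and 16.3 CPM in sham libraries. The burn libraries reached higher for each of the 3, and the groups overlapped. The lowest sham value of each of the 3 was that of mouse 13, the only CD11b library of batch 2. As that batch held no burn CD11b library, mouse 13 does not inform the burn estimate where batch is a term. In edgeR with batch as a term, 0 of the 10 genes were called, as were 0% of 26079 genes, and DESeq2 called none either. The log2 fold changes were 0.61 ± 0.23 for Cbr2, 0.55 ± 0.20 for Cd163, 0.52 ± 0.26 for Pf4, 0.49 ± 0.27 for Lyve1, 0.39 ± 0.24 for Ccr2, 0.37 ± 0.17 for Mrc1, 0.23 ± 0.24 for Ms4a7, 0.23 ± 0.46 for Ly6c2, 0.20 ± 0.17 for F13a1 and 0.11 ± 0.09 for Stab1, with edgeR adjusted p of 0.639 or more. At an unadjusted p under 0.05 stood Cbr2, Cd163 and Mrc1, against 7.81% of all genes. All 10 estimates were above 0, where 50.5% of all genes were, and their median was 0.38 against 0.00224 over all genes. Genes read in the same libraries are not independent observations of the burn, here or in the other populations. Most of the members rose and fell together over the CD11b mice. For Ly6c2 the sign turned without mouse 8 or mouse 20. Of the 18 other border macrophage markers 16 were above 0 and none was called, with a median of 0.33, while 6 of the 10 microglia markers were above 0 with a median of 0.03 and 2 of the 6 neutrophil markers were above 0 with a median of -0.34. Dendritic cell markers were above 0 in 4 of 5 (median 0.70), lymphocyte markers in 6 of 8 (median 0.22) and monocyte markers in 6 of 9 (median 0.03). Endothelial markers were above 0 in 1 of 5 (median -0.73), astrocyte markers in 1 of 5 (median -0.38), lymphatic markers in 1 of 3 tested (median -0.35), neuron markers in 0 of 5 (median -0.22), mural and fibroblast markers in 4 of 8 (median -0.17) and oligodendrocyte markers in 2 of 4 (median 0.07). Both platelet markers tested were below 0, and the 1 red blood cell marker tested was at 5.16. None of these markers was called, and their part was not tested.

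**Figure D3:**
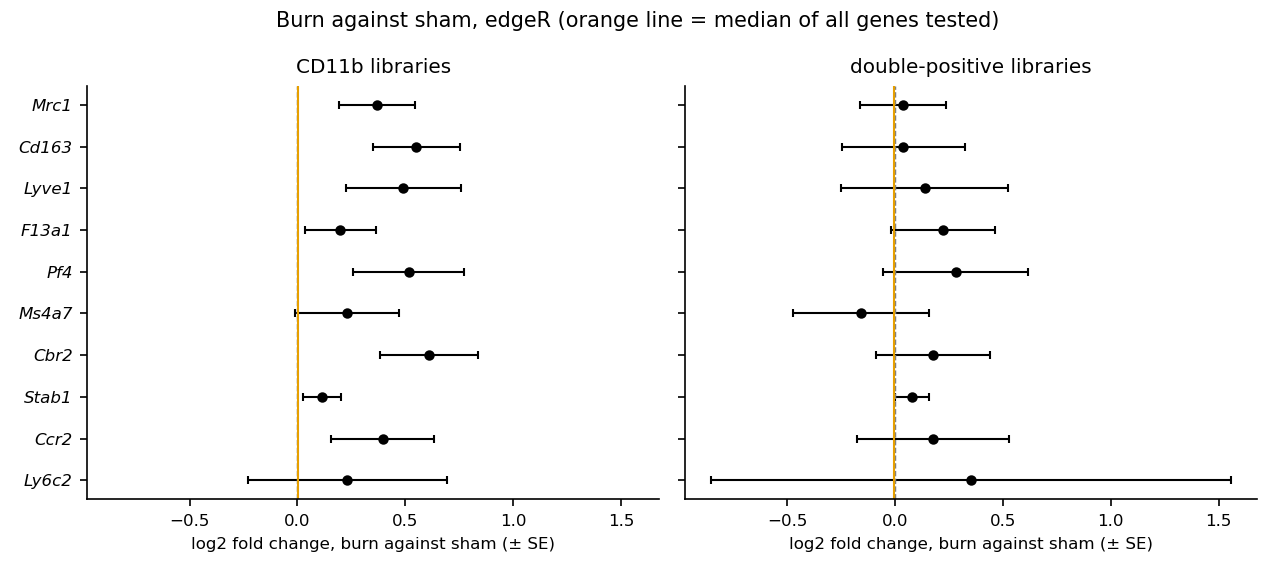
Log2 fold change of burn against sham with its SE (edgeR, batch as a term) for the 10 genes in CD11b cells (left) and double-positive cells (right), with an orange line at the median of all genes tested. All 10 points lie above 0 in CD11b cells, from 0.11 for Stab1 to 0.61 for Cbr2, and those of double-positive cells have a median of 0.16.

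In batch 3, where both arms of the CD11b cells held 5 mice, the estimates were larger for the 8 macrophage genes and smaller for Ccr2 and Ly6c2 than over all batches. The sham mice of this batch had numbers 15 to 19 and the burn mice 20 to 24. Burn and any order by mouse number thus cannot be told apart there. Mrc1 was at 170, 212, 247, 259 and 282 CPM in burn mice and at 99.5, 130, 160, 167 and 175 CPM in sham mice. Cd163 was at 32.0, 42.0, 53.0, 54.9 and 58.9 CPM in burn mice and at 17.5, 23.0, 23.8, 29.4 and 35.3 CPM in sham mice. F13a1 was at 88.0, 111, 111, 118 and 131 CPM in burn mice and at 61.8, 80.1, 81.5, 86.8 and 87.0 CPM in sham mice. In this batch the arms of F13a1 did not overlap, with every burn library above every sham library, which held for 0.377% of 24143 genes. For Mrc1 and Cd163 only burn mouse 22 lay below the highest sham mouse, 15. In batch 3 alone the log2 fold changes were 0.99 ± 0.24 for Cbr2, 0.93 ± 0.18 for Cd163, 0.86 ± 0.27 for Lyve1, 0.79 ± 0.30 for Pf4, 0.70 ± 0.15 for Mrc1 and 0.52 ± 0.12 for F13a1. None was called, the smallest edgeR adjusted p being 0.172 for Cd163. Together with Stab1 (0.22 ± 0.10) these 7 genes had an unadjusted p under 0.05, against 7.63% of all genes, while Ms4a7 (0.46 ± 0.28), Ccr2 (0.24 ± 0.25) and Ly6c2 (-0.10 ± 0.44) did not. Many of these genes were correlated over the same mice, so the count does not stand for that many independent observations. In batch 1 the order was not the same, since the single sham library, of mouse 8, held 230 CPM of Mrc1 and 34.3 CPM of Cd163 and the 3 burn libraries held 124, 136 and 210 CPM of Mrc1 and 17.6, 28.0 and 28.3 CPM of Cd163. For F13a1 the sham library of mouse 8 held 100.4 CPM and the 3 burn libraries 39.5, 63.3 and 83.4 CPM, so over all batches the arms overlapped. The count of non-overlapping genes in batch 3 was chosen after the data were seen.

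**Figure D4:**
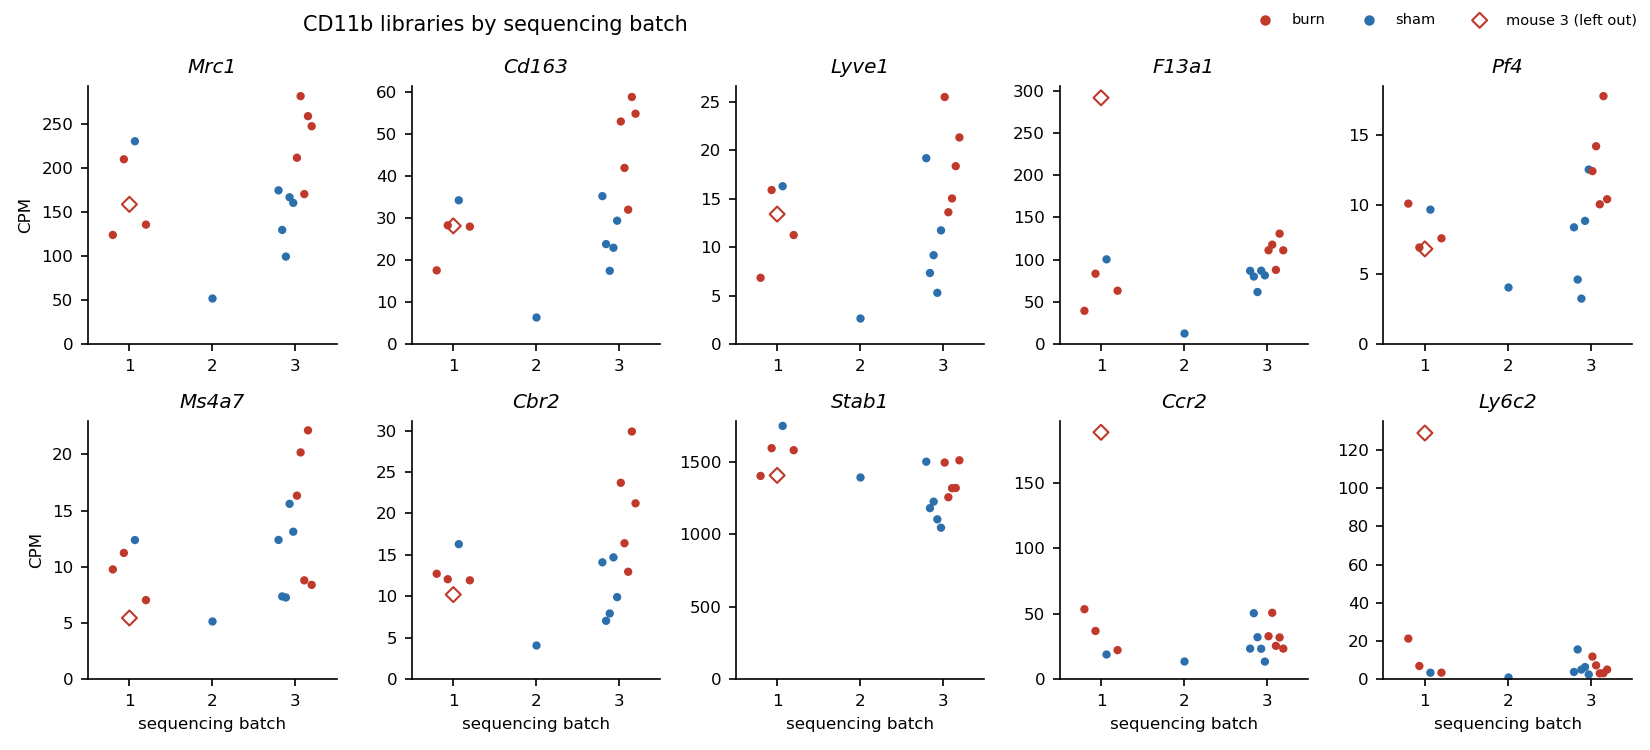
CPM of each gene in the CD11b libraries (linear axes from 0) by sequencing batch, burn in red and sham in blue, with the left-out burn library of mouse 3 as an open diamond. In batch 3 the burn libraries of F13a1 (88.0 to 131 CPM) lie above the sham libraries (61.8 to 87.0 CPM), while mouse 3 stands apart for F13a1, Ccr2 and Ly6c2.

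In double-positive cells the estimates of batch 3 lay on both sides of 0. There Mrc1 was at 47.0 to 99.5 CPM in 5 burn mice and 61.6 to 81.5 CPM in 5 sham mice, a log2 fold change of -0.01 ± 0.16, and Cd163 was at 4.76 to 9.42 and 6.39 to 10.1 CPM, a change of -0.09 ± 0.26. The other log2 fold changes in that batch ran from -0.37 ± 0.29 for Ms4a7 to 0.41 ± 1.40 for Ly6c2, with 0.15 ± 0.27 for Cbr2, 0.17 ± 0.42 for Pf4, 0.19 ± 0.44 for Lyve1 and 0.22 ± 0.16 for F13a1. Over all batches 0 of the 10 genes were called in edgeR, as were 0% of all genes, none had an unadjusted p under 0.05, against 7.01% of all genes, and DESeq2 called none. Within batch 3 none was called or had such a p, against 6.68% of all genes. Of the 10 estimates 9 were above 0, where 49.2% of all genes were, with a median of 0.16. The difference of the burn effect between the 2 populations was tested in the joint fit. None of the 10 genes was called, where 0.112% of all genes were. It was -0.15 for Mrc1, with a 95% interval of -1.31 to 1.02, and -0.14 for Cd163, with an interval of -1.82 to 1.54, and both intervals hold differences of 2-fold in either direction. Over 26 alternatives the difference ran from -0.696 to 0.0773 for Mrc1 and from -0.999 to 0.0755 for Cd163.

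In CaMKII cells the burn libraries held 7.31, 15.1, 17.4 and 28.3 CPM of Mrc1 and the 6 sham libraries 0.719, 11.1 and 27.4 CPM (lowest, median and highest). No gene was called there in edgeR or DESeq2, as were 0% of all genes. None of the 10 had an unadjusted p under 0.05, against 3.90% of all genes, while 8 were above 0, where 51.8% of all genes were, and their median was 1.05. All 10 microglia markers were also above 0 in these libraries, with a median of 0.56, as were 3 of 3 red blood cell markers (median 6.49), 5 of 6 neutrophil markers (median 1.06), 3 of 5 platelet markers (median 1.04) and 6 of 9 monocyte markers (median 0.49). So were 14 of 17 other border macrophage markers (median 1.15), 6 of 8 lymphocyte (0.27), 3 of 5 dendritic cell (0.17) and 4 of 5 astrocyte markers (0.18). Above 0 stood 0 of 5 endothelial markers (median -0.23), 1 of 4 lymphatic (-0.12), 1 of 8 mural and fibroblast (-0.31), 0 of 5 neuron (-0.18) and 0 of 4 oligodendrocyte markers (-0.51). At an unadjusted p under 0.05 stood 3 other border macrophage, 2 microglia, 2 red blood cell, 2 neutrophil, 1 lymphocyte and 1 mural or fibroblast marker. The part of these cells was not tested. In ACSA2 cells 9 of the 10 genes passed the filter on low counts, all but Pf4, and none was called in edgeR or DESeq2, as were 0% of all genes. Cd163 and Ms4a7 had an unadjusted p under 0.05, against 10.7% of all genes, but they rested on 3 of 9 and 2 of 9 burn libraries with any count and on no count in 8 sham libraries. The highest were 0.406 and 0.366 CPM. The difference of the burn effect between CD11b and ACSA2 cells was called for none of the 10, as it was for 0% of all genes.

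Sequencing batch was then compared in the same fits. In CD11b cells Cd163 (1.26 ± 0.27, edgeR adjusted p = 0.0216) and F13a1 (1.54 ± 0.23, edgeR adjusted p = 0.00143) were called higher in batch 3 than in the mean of batches 1 and 2, where 0.399% of all genes were called and 0.391% were higher. This rested on the single library of batch 2, of mouse 13, which held 6.59 CPM of Cd163 and 12.9 CPM of F13a1 and had the lowest level of 6 of the 8 macrophage genes. Without mouse 13 none of the 10 was called, and the estimates were 0.43 and 0.38. With mouse 3 put back F13a1 was not called (1.19, edgeR adjusted p = 0.11). In double-positive cells none was called, where 1.12% of all genes were, and Stab1 was lower by 0.36 on the log2 scale with an edgeR adjusted p of 0.00842 but a change below the fold limit. None was called in CaMKII (0% of all genes) or, of 9 tested, in ACSA2 cells (1.03% of all genes). In CD11b cells, 15 of 18 other border macrophage (median 0.75), 8 of 9 monocyte (1.07) and 6 of 6 neutrophil markers (1.39) were above 0 in batch 3. So were 5 of 8 lymphocyte (0.79), 4 of 5 endothelial (1.05), 8 of 8 mural and fibroblast (0.68) and 4 of 5 astrocyte markers (0.50). Above 0 stood 0 of 10 microglia (-0.32), 1 of 5 neuron (-0.75) and 1 of 4 oligodendrocyte markers (-0.17). The part of these cells was not tested.

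How the genes vary among themselves was asked over the 15 CD11b mice, for 45 pairs, with Pearson's r and Spearman's rho of log2 (CPM + 0.1). Mrc1, Cd163, Lyve1, F13a1, Pf4, Ms4a7 and Cbr2 had r from 0.51 to 0.93 in their 21 pairs, of which 20 had a permutation p of at most 0.05 adjusted over the 45, the exception being Lyve1 and Ms4a7 (adjusted p = 0.104). Within batch 3, 12 of the 21 did. There Lyve1 passed with Cd163 (r = 0.83) but not with Mrc1 (r = 0.59), F13a1 (0.60), Pf4 (0.54), Ms4a7 (0.24) or Cbr2 (0.67), and Ms4a7 passed with Pf4 alone (r = 0.80). Mrc1 and Cd163 had r = 0.93 (permutation p = 1e-05, the smallest 100000 draws can give, adjusted over 45 pairs 0.000112) and rho = 0.91. Their r was 0.82 without the 2 mice farthest from the median and 0.90 within batch 3 (permutation p = 0.00064). Mrc1 and F13a1 had r = 0.92 (permutation p = 3e-05) and rho = 0.95, 0.85 without those 2 mice and 0.97 within batch 3. Stab1 had r from -0.14 to 0.40 against the other genes, the largest with Lyve1. Within batch 3, however, Stab1 and Lyve1 had r = 0.82 (permutation p = 0.0039, adjusted 0.0146), Stab1 and Cd163 0.65 (permutation p = 0.046, adjusted 0.109) and Stab1 and Cbr2 0.57 (permutation p = 0.0862, adjusted 0.176). Ccr2 and Ly6c2 followed each other instead, with r = 0.84 (permutation p = 0.00014, adjusted 0.000787) and rho = 0.81, and r = 0.82 without 2 mice. Within batch 3 their r was 0.72 (permutation p = 0.0204, adjusted 0.0655). Their r with the 8 macrophage genes ran from -0.04 to 0.28. Of the 45 pairs, 21 had an adjusted p of at most 0.05, 13 within batch 3.

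Within the double-positive cells of 16 mice 17 pairs reached an adjusted p of at most 0.05, among them Mrc1 and F13a1 with r = 0.86 (permutation p = 0.00017, rho = 0.69), but none did within batch 3, where their r was 0.57 (permutation p = 0.0891). Burn mouse 10 of batch 1 held the highest level of 7 of the 8 macrophage genes among these libraries, such as 186 CPM of Mrc1, and without the 2 mice farthest from the median no pair reached that p. A mouse high for a gene in CD11b cells was not found to be high for it in double-positive cells, as none of the 10 relations over 14 mice reached an adjusted p of at most 0.05. Mrc1 had r = -0.07 (permutation p = 0.79) and rho = -0.29, with -0.28 within batch 3. Stab1 had r = 0.63 (permutation p = 0.0156, adjusted 0.156) and rho = 0.64, which was 0.41 without the 2 farthest mice and 0.38 within batch 3.

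**Figure D5:**
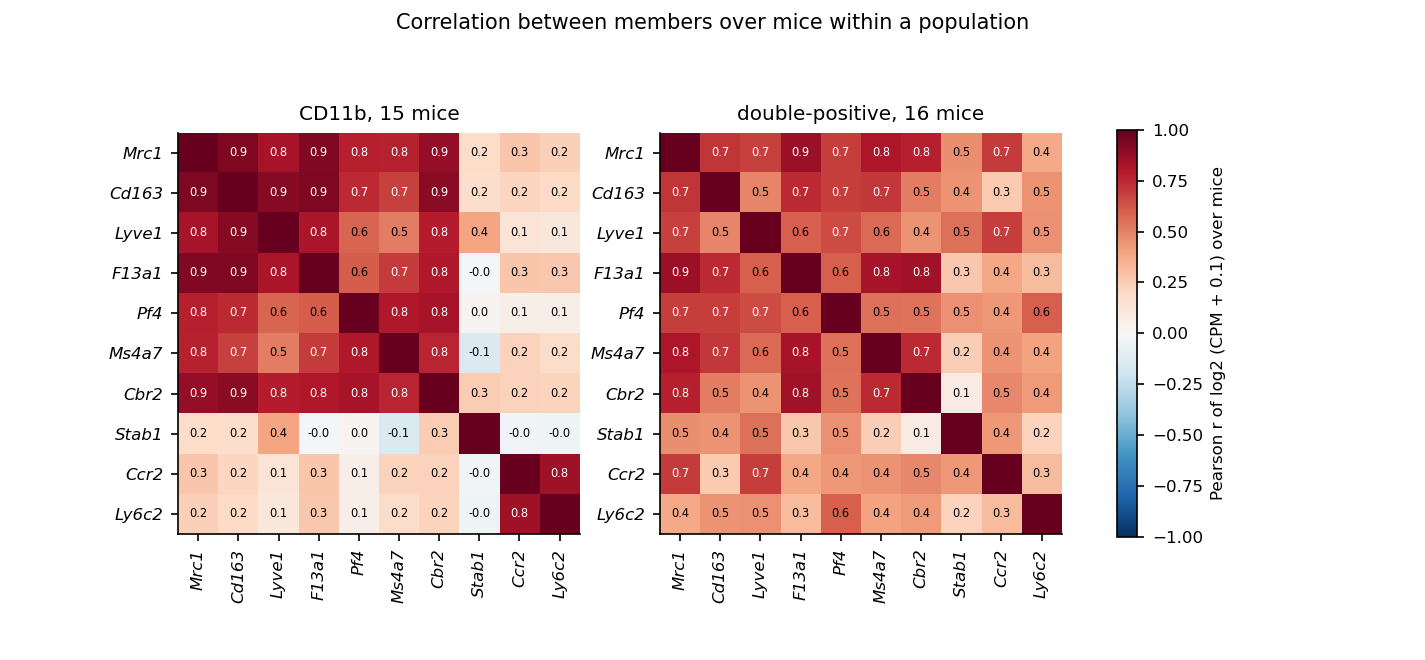
Pearson r between the 10 genes over mice, from log2 (CPM + 0.1), in 15 CD11b libraries (left) and 16 double-positive libraries (right), red for positive and blue for negative. In CD11b cells the 21 pairs of 7 macrophage genes have r from 0.51 to 0.93 over all batches, the lowest for Lyve1 and Ms4a7, Ccr2 and Ly6c2 form a pair at 0.84, and Stab1 lies between -0.14 and 0.40 over all batches.

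Genes whose pattern over the 15 CD11b libraries was most like the mean of the 8 macrophage genes were sought among 14761 genes with a mean of at least 1 CPM. The closest were Colec12 (r = 0.94), a scavenger lectin, Msr1 (r = 0.90), the class A scavenger receptor, Cd38 (r = 0.90), an ectoenzyme that consumes NAD, and Dab2 (r = 0.90), an endocytic adaptor. They were followed by Ifi207 (0.89), Bmp2 (0.88), Folr2 (0.87), 8030453O22Rik (0.87), Aoah (0.87) and Igf1 (0.87). Colec12, Cd38, Dab2 and Folr2 had also stood in the list of 18 other border macrophage markers. These r pool all batches and were not computed within batch 3 or without mouse 13, the lowest library for 6 of the 8 macrophage genes. On the log2 scale Colec12 was 1.21, Cd38 1.26, Dab2 1.03 and Folr2 1.35 higher in batch 3 than in the mean of batches 1 and 2. The part of batch in the likeness was not tested. Colec12 ranged from 1.79 to 16.6 CPM over these libraries and Dab2 from 50.2 to 250 CPM.

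Genes for ligands and receptors that recruit and keep these cells were set beside the members. Of 10 such genes, 1 was called lower in double-positive than in CD11b cells, the integrin subunit Itga4 (-2.19 ± 0.25), and none higher, with a median of -0.07. Ccl2, the ligand of Ccr2, averaged 46.9 ± 14.3 CPM in CD11b and 45.3 ± 10.5 CPM in double-positive cells. Csf1, a ligand of Csf1r, averaged 104 ± 27.0 and 119 ± 61.1 CPM. No gene of the list was called between burn and sham in any of the 4 populations, and in CD11b cells 6 of 10 were above 0 with a median of 0.07.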

How the data were processed

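Libraries were stranded, ribosome-depleted total RNA of sorted cells, 63 in all, of which 58 from 17 mice were kept. The deposited values were raw counts per gene. The authors trimmed reads with fastp, aligned them with STAR (GRCm39, with mm10 also named in the notes) and counted them with GenomicAlignments. The variance-stabilised tables the authors also deposited were not used here. No row lacked a gene identifier. From these counts CPM were computed, and levels were set between genes only as CPM per kilobase of exon.

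Groups, populations and mouse numbers came from the labels, and sequencing batch from the study. Burn was tested against sham within each population with edgeR 4.0.16 in R 4.3.3 (quasi-likelihood test, TMM, at least 10 counts in total, batch as a term, Benjamini-Hochberg adjustment over all genes tested, called at 0.05 and a log2 fold change of 1). Populations were compared in 1 joint fit. The same mouse number marked the same animal in each population, so the samples are paired across populations, and a fit with the mouse as a replicate block was an alternative, as was DESeq2 1.42.0. Ratios took a pseudocount of 0.5 counts and correlations 0.1 CPM with 100000 permutations (Python 3.11.15, scipy 1.17.1). The design of the ratio test had named an adjustment over the 10 genes, but only unadjusted exact p are given. Scripts were tested on simulated data. Precision follows from 13346143 counts or more per library, and floors of 3 counts cover counting error only.

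All 10 members are named. Of each other list, up to 3 genes per direction with the largest called change could be named, and the 10 genes most like the members. Members and lists were chosen with earlier results of these data known.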

Additional observations from a re-analysis of the deposited data

Results flagged for a closer look

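Within groups of 4 to 10 libraries, 18 of 76 groups held a library far from the others by Dixon's criterion, which chance gives in about 5% of groups. The double-positive burn library of mouse 10 was the highest for Mrc1 (186 CPM), Cd163 (26.2 CPM), Lyve1 (11.4 CPM), F13a1 (82.0 CPM) and Ms4a7 (15.9 CPM). In double-positive sham libraries, mouse 19 was high for Pf4 (5.32 CPM) and Ly6c2 (1.96 CPM).

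Among CaMKII libraries, burn mouse 20 stood apart for Ccr2 (53.2 CPM) and Ly6c2 (62.2 CPM), and sham mouse 15 for Ms4a7 (19.7 CPM). In CD11b sham libraries, mouse 16 was high for Ly6c2 (15.5 CPM). In ACSA2 cells the levels were low throughout, and single libraries stood apart for Lyve1 (burn mouse 24 at 0.694 CPM, and sham mouse 12 at 0.0419 CPM from 2 counts), F13a1 (sham mouse 17, 0.590 CPM), Ms4a7 (burn mouse 23, 0.366 CPM), Cbr2 (burn mouse 22, 0.866 CPM) and Ccr2 (burn mouse 23, 1.34 CPM, and sham mouse 18, 0.810 CPM).

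The CD11b library of burn mouse 3, left out of the main comparisons and used only where all deposited libraries were put back, held 292 CPM of F13a1, 189 CPM of Ccr2 and 129 CPM of Ly6c2. These were 2.90, 3.75 and 8.30 times the highest sham library. The other 7 members lay below the highest sham library, at 0.349 (Ms4a7) to 0.805 (Stab1) times it. The neutrophil gene S100a8, no member, was at 770 CPM, 20.6 times the highest sham library.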

How the results depend on the processing

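Of the counts of members that answer a comparison, leaving out 1 mouse kept 270 values within 1.5 times the reported one and moved 14, and the other alternatives kept 137 and moved 8. For the batch difference of the double-positive to CD11b ratio, added after the data were seen, 2 members had an unadjusted exact p of at most 0.05, 4 per library total, and 0 to 5 when 1 mouse was left out. Ms4a7 then ran from -1.06 to 0.0913, its sign turning without mouse 10. Between batches, DESeq2 called 2 members in CaMKII cells, where leaving out 1 mouse gave 0 to 1. No minimum fold change gave 1 in double-positive cells, and all deposited libraries gave 1 in CD11b cells, where leaving out 1 mouse gave 0 to 2. Per microglia-marker count, all deposited libraries left 1 member between double-positive and CD11b cells, and leaving out 1 mouse gave 9 to 10. The relations across the populations of a mouse numbered 0 to 1 when 1 mouse was left out. Pairs of members passing numbered 13 within batch 3 of the CD11b cells, and in double-positive cells 0 within batch 3 and 0 without the 2 farthest mice. The replicate block by mouse ended the call of Ccr2 between double-positive and CD11b cells (5 members called in place of 6), and changed no other call.

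Signs of members that were not called turned in several contrasts, and the cause was not tested. The difference of the burn effect between double-positive and CD11b cells turned for 9 of the 10 members, all but Cbr2, under 2 (Cd163) to 10 (Pf4) of 26 alternatives, 4 of them for Mrc1. It ran from -0.696 to 0.0773 for Mrc1 and from -0.999 to 0.0755 for Cd163. Burn in CaMKII cells turned for Cbr2 under 6 of 19, for Cd163 under 2 and for Pf4 and Ly6c2 under 1 each. Between CaMKII and double-positive cells, Ms4a7 was at -0.27 with the replicate block and between -0.63 and 0.56 without single mice. For burn in double-positive cells, batch 3 alone gave -0.0103 for Mrc1 and -0.0872 for Cd163. Leaving out single mice gave -0.0611 to 0.13 for Mrc1, -0.0882 to 0.14 for Cd163, -0.0553 to 0.30 for Lyve1, -0.0920 to 0.34 for Ccr2 and -3.63 to 0.93 for Ly6c2. Ms4a7 turned to 0.0188 with all deposited libraries and 0.14 with no batch term. For burn in CD11b cells, Ly6c2 was at -0.0986 in batch 3 alone and between -0.10 and 0.76 without single mice. Between batches in CD11b cells, Ccr2 was at -0.0464 with all libraries and between -0.0177 and 0.57 without single mice, and Ly6c2 at -0.0612 and between -0.41 and 1.33. The Stab1 ratio was 0.0570 over Csf1r and 0.0915 with all libraries, and that of Pf4 between CaMKII and double-positive cells was between -0.76 and 0.30 without single mice.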
